A study of Mus musculus with 4 samples.

Results

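Epithelial and blood-derived cells move sugars, phosphate, organic anions and protons with carrier proteins of a few gene families, and 51 genes of 7 such families were followed here across the cell classes of nephritic mouse kidney. The 51 are every gene in the data whose symbol is Slc2a, Slc5a, Slc34a, Slc20a, Slc13a, Slc9a or Slc16a followed by digits only, out of 16706 genes. They are 10 carriers mostly of glucose and other sugars (Slc2a) and 9 sodium-coupled carriers of glucose, other sugars, monocarboxylates and vitamins (Slc5a). There are 3 and 2 phosphate carriers (Slc34a and Slc20a) and 5 carriers of sulfate and dicarboxylates (Slc13a). The rest are 9 sodium-proton exchangers (Slc9a) and 13 carriers of monocarboxylates, thyroid hormone and aromatic amino acids (Slc16a). Total kidney cells came from male C57Bl/6 mice of 9 weeks with the genotype Pax2.rtTA;TetO.Cre;R26.Confetti, in which the Pax2 promoter drives an inducible Cre and a colour reporter. Every group carried this genotype and received anti-GBM serum, an antiserum to the glomerular basement membrane that causes crescentic glomerulonephritis, so no group was free of disease. From day 1 the groups received vehicle, the histone deacetylase inhibitors panobinostat (15 mg/kg) or givinostat (10 mg/kg), or the Janus kinase inhibitor ruxolitinib (60 mg/kg), and kidneys were taken on day 7. Each group had 2 animals and gave 1 droplet single-cell library, and the labels do not say whether that library pools both animals. Each comparison is therefore between libraries, has no replicate check and no test, and its 95% intervals cover counting error only. Values for the 4 libraries are given in the order vehicle, panobinostat, givinostat, ruxolitinib.

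In the healthy proximal tubule, glucose enters the cell from the filtrate through the sodium-coupled carriers Slc5a2 (SGLT2) in the early S1 segment and Slc5a1 (SGLT1) in the late S3 segment, and leaves to the blood through Slc2a2 (GLUT2). Slc34a1 (NaPi-IIa) and Slc34a3 (NaPi-IIc) take up phosphate, and Slc9a3 (NHE3) exchanges sodium for protons at the same brush border. Farther along the nephron and in leukocytes, glucose enters mostly through Slc2a uniporters, and lactate crosses the membrane through Slc16a carriers.

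The regions just upstream of the RefSeq starts of 5 carriers are shown, and these carriers lie at opposite ends of the proximal tubule in these data. The regions carry, or lack, the core letters of motifs bound by tubular transcription factors. Each run is the 250 bases before the RefSeq start of the gene on GRCm38.p6, read 5′ to 3′ on the gene's strand. Capitals mark GTTAAT or its reverse complement ATTAAC, part of the HNF1 motif, and AGGTCA or its reverse complement TGACCT, a core motif of nuclear receptors. The 2 motifs do not overlap in these runs.
Slc34a1: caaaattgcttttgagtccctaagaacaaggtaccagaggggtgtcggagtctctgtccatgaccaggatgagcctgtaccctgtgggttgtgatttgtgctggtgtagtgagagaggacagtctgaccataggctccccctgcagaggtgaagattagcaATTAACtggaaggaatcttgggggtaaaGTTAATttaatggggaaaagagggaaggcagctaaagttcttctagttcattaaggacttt
Slc2a2: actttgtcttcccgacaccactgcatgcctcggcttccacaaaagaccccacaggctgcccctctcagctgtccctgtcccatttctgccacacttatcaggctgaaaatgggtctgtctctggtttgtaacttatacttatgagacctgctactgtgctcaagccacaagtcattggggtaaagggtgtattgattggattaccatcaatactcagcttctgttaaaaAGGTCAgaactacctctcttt
Slc34a3: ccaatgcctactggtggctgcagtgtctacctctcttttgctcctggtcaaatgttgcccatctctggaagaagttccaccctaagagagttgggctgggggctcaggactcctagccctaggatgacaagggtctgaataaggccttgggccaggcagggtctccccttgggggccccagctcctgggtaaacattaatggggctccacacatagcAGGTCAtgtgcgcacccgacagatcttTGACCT
Slc5a1: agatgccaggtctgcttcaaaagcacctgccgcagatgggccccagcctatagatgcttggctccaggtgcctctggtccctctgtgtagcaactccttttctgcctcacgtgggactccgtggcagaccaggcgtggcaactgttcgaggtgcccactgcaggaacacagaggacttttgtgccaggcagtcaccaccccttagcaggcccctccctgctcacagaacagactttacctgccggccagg
Slc5a8: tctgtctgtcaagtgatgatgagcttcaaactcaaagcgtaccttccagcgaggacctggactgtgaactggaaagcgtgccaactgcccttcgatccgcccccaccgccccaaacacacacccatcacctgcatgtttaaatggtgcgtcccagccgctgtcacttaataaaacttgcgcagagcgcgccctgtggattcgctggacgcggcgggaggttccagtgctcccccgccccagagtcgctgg
The regions are chr13:55399398-55399647 on the plus strand (Slc34a1), chr3:28697653-28697902 on the plus strand (Slc2a2), chr2:25234235-25234484 on the minus strand (Slc34a3), chr5:33103969-33104218 on the plus strand (Slc5a1) and chr10:88885742-88885991 on the plus strand (Slc5a8). GENCODE vM21 places Slc34a1 at 55398187 to 55415592, so its window and both of its matches lie inside that annotated gene. It places Slc34a3 at 25228898 to 25234364, so that window lies partly inside the gene. Both matches of the Slc34a3 window, near the end of the run, lie in the part inside the gene. The phosphate carrier Slc34a1 had 2 matches to GTTAAT, Slc34a3 had 2 to AGGTCA and Slc2a2 had 1 to AGGTCA, while the windows of Slc5a1 and Slc5a8 held none of these letters. Over 32851 promoters of this length 6.43% held GTTAAT and 14.0% held AGGTCA, and of the 35 carriers with a promoter entry 3 (Slc16a10, Slc34a1 and Slc5a10) and 6 (Slc20a1, Slc2a2, Slc2a9, Slc34a3, Slc5a10 and Slc5a11) did, similar shares. Slc5a10, which was higher in S3-like than in S1-like cells, held both motifs. The 5 windows shown therefore do not stand for a split of the motifs by segment. A match to 6 letters is a description of the window and not evidence of binding.

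Cells were grouped on variable genes from which all 51 carriers were left out, and groups were named "-like" from marker genes that hold none of the 7 families. Of 16003 barcodes 15777 cells were kept, with 36861583 to 45075309 unique molecular identifiers (UMIs) per library. Median UMIs per cell were 7958, 6569, 10021 and 8370, and median mitochondrial shares were 11.4%, 12.6%, 6.33% and 9.34%, so depth and this sign of RNA quality differed between libraries. Only 20 barcode sequences occurred in more than 1 library. The gene Tpm3-rs7 stood at 4.14, 3.96, 53.8 and 53.8 CPM (a gene's UMIs scaled to a common library total) and Gm10036 at 31.7, 24.5, 6.26 and 6.44 CPM over all cells, which sets the vehicle and panobinostat libraries apart from the other pair. Every difference between givinostat or ruxolitinib and vehicle crosses that split, and its part in the results below was not tested. Proximal tubule-like cells numbered 1798, 2519, 1196 and 1756, and they were split into S1-like (601, 913, 362 and 762), middle (1117, 1518, 782 and 900) and S3-like cells (80, 88, 52 and 94). S1 markers (Gatm, Ass1 and 5 others) summed to between 7071 and 7443 CPM in S1-like cells and between 879 and 1072 CPM in S3-like cells. S3 markers (Slc7a13, Cyp7b1 and 7 others) summed to between 9359 and 11355 CPM in S3-like cells and between 1090 and 1462 CPM in S1-like cells. These markers gave the segments their names and are no independent check of them.

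The carriers together took 0.486%, 0.550%, 0.424% and 0.463% of all UMIs, and the phosphate carrier Slc34a1 alone gave 52.6%, 56.2%, 51.5% and 47.9% of those carrier UMIs. Of the 51, 31 reached 50 CPM in at least 1 class of at least 50 cells per library, 16 reached between 10 and 50 CPM, and 4 stayed under 10 CPM: the uniporter Slc2a12, the citrate carrier Slc13a5, its relative Slc13a4 and the exchanger Slc9a5. All 3 Slc34a genes reached 50 CPM, while 2 of 9 Slc9a exchangers did. Among the 31, proximal tubule-like cells held the highest level of 18 in all 4 libraries. Loop of Henle-like cells held that of 6 (Slc2a1, Slc2a4, Slc5a1, Slc5a3, Slc9a3 and Slc34a2), distal-like cells that of 2 (Slc2a9 and Slc16a7) and leukocytes that of 3 (Slc2a3, Slc16a3 and Slc16a6). The highest class differed between libraries for 2: Slc16a5, between loop and distal cells, and the phosphate carrier Slc20a1. Exons of 10 carriers overlap, on the opposite strand, those of another gene in the data, and whether strand was used in counting is not given in the sources used here. For Slc5a2 that neighbour is BC017158, at 8.62 to 12.6 CPM in S1-like cells, and for the vitamin carrier Slc5a6 it is Atraid, at 133 to 153 CPM there.

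**Figure D1:**
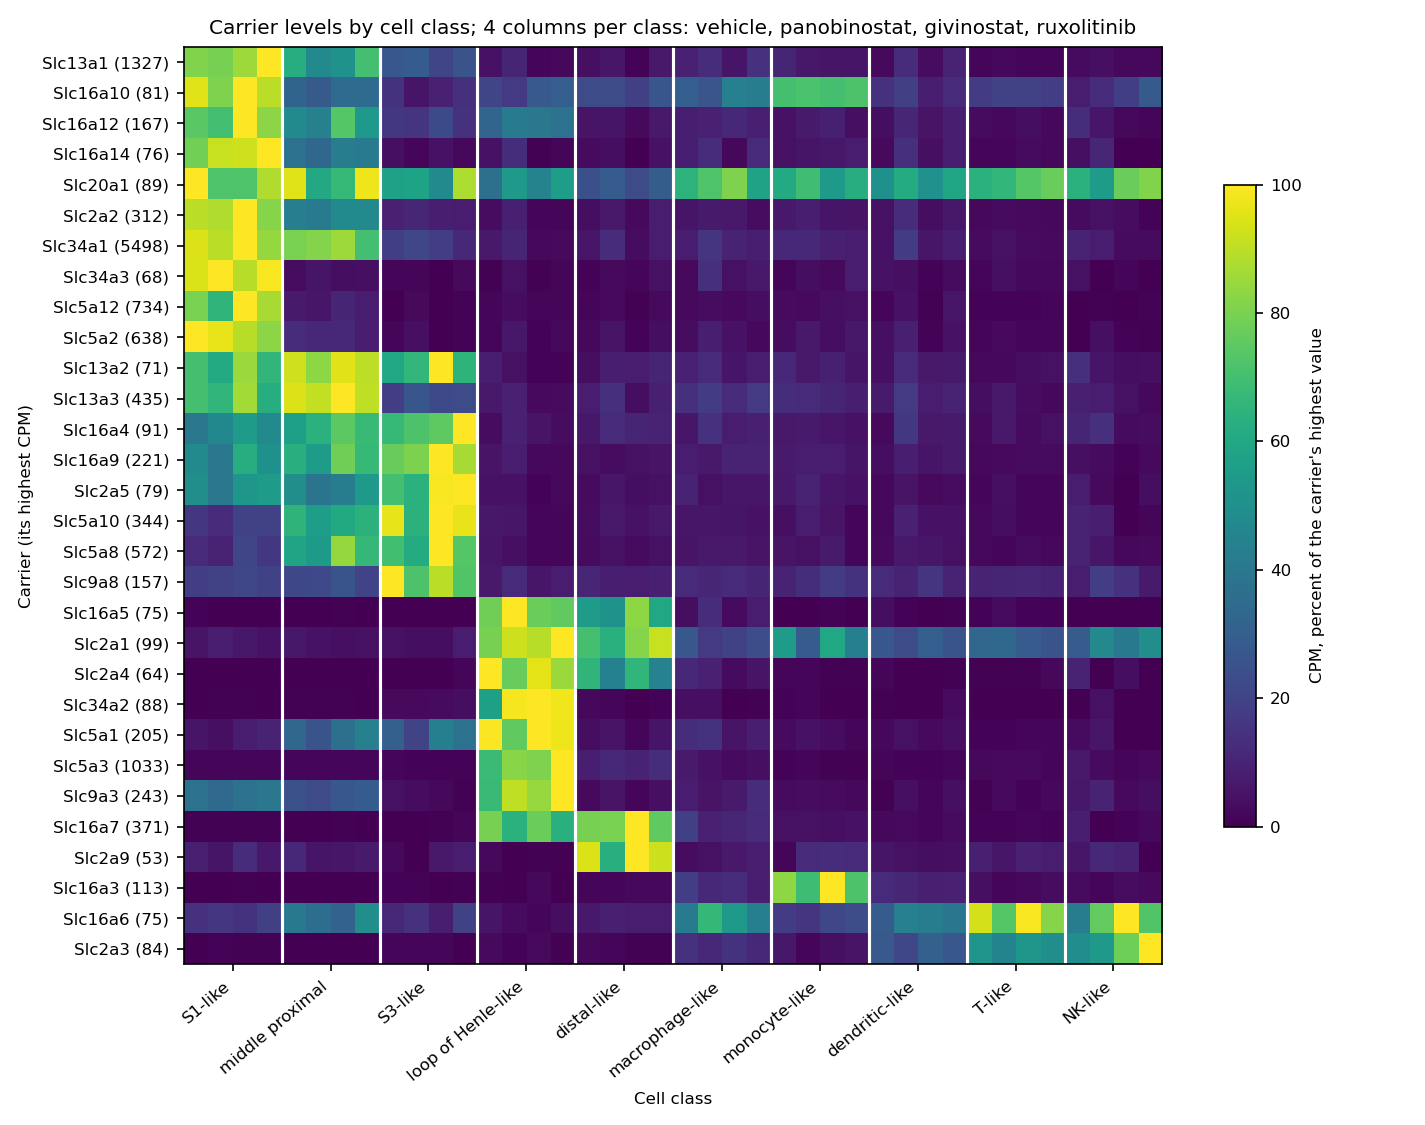
Levels of 30 of the 31 carriers that reached 50 CPM. Rows are carriers with their highest CPM in brackets, columns are cell classes with 4 libraries each in the order vehicle, panobinostat, givinostat, ruxolitinib, and colour is CPM as a percent of the carrier's highest value (linear scale from 0 to 100). The proximal block is split between carriers brightest in S1-like cells, such as Slc5a2, and carriers brightest in S3-like cells, such as Slc5a8. Slc20a1 is spread over tubule and leukocyte columns. It is dim in distal-like cells, at 20.2 to 26.4 CPM against its highest value of 88.9 CPM.

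Along the proximal tubule the glucose carriers traded places. Slc5a2, the main glucose uptake carrier of the early tubule (chromosome 7, 128265657 to 128272430 of GRCm38), stood at 638, 617, 569 and 526 CPM in S1-like cells, 81.1, 70.9, 74.5 and 52.0 CPM in middle cells and 7.60, 27.0, 0 and 6.80 CPM in S3-like cells. All 4 S1-like values lay above all 4 middle values, and the S3-like values rested on 7, 23, 0 and 8 UMIs. A count of 3 UMIs is worth 2.55 to 3.72 CPM there, so the givinostat library allows a level of up to 3.72 CPM. Slc5a1, the late glucose carrier (chromosome 5, 33104219 to 33162870), ran the other way at 11.5, 8.003, 16.6 and 20.4 CPM in S1-like, 67.2, 53.4, 75.2 and 89.2 CPM in middle and 63.0, 42.2, 88.1 and 76.5 CPM in S3-like cells. It was 3.76 to 5.47 times higher in S3-like than in S1-like cells, while middle and S3-like cells overlapped. Slc2a2, the exit path for glucose (chromosome 3, 28697903 to 28731359), stood at 279, 274, 312 and 255 CPM in S1-like, 133, 129, 147 and 146 CPM in middle and 28.2, 34.01, 26.1 and 25.5 CPM in S3-like cells. Its 3 segments did not overlap, and S1-like cells were 8.05 to 12.0 times above S3-like cells. Slc5a10, a sodium-coupled carrier of mannose and fructose, stood at 54.5, 42.4, 66.4 and 68.3 CPM in S1-like and 331, 220, 344 and 332 CPM in S3-like cells, and all S3-like values were higher. The fructose uniporter Slc2a5 was 1.42 to 1.86 times higher in S3-like than in S1-like cells, which did not pass 1.5-fold in every library.

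**Figure D2:**
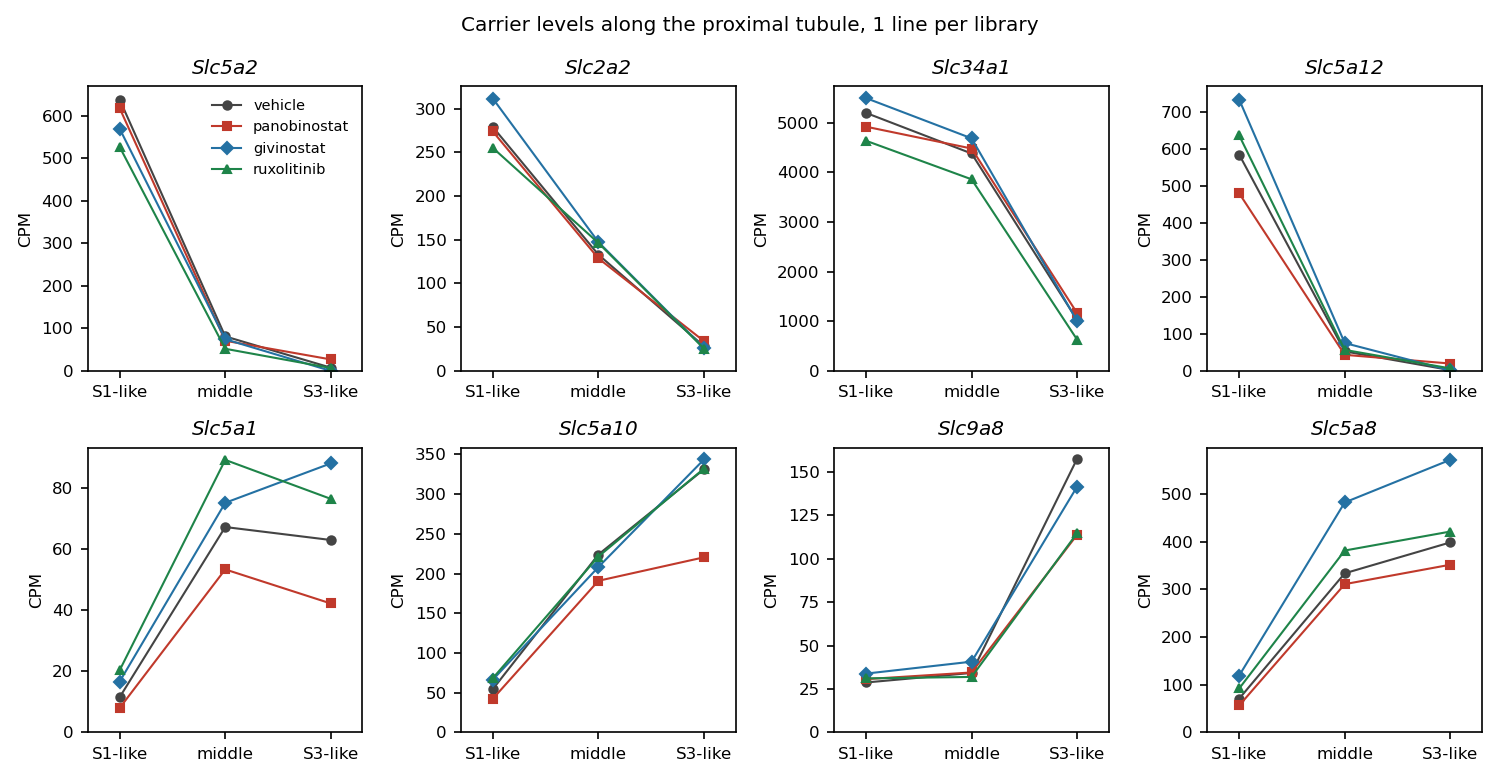
Levels of 8 carriers in S1-like, middle and S3-like proximal cells. The vertical axis is CPM on a linear scale from 0, each line is 1 library and has no error bar because there is 1 library per group. Slc5a2, Slc2a2, Slc34a1 and Slc5a12 run down from S1-like to S3-like cells in 4 of 4 libraries, and Slc5a1, Slc5a10, Slc9a8 and Slc5a8 are higher in S3-like than in S1-like cells in 4 of 4.

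Of 33 carriers with at least 10 CPM in S1-like or S3-like cells, 13 were higher in S1-like cells past 1.5-fold in all 4 libraries, against 24.9% of 8322 genes, and 6 were higher in S3-like cells, against 4.25%. A difference was counted past 1.5-fold on log2(CPM + 5), and 14 carriers passed in neither direction in all 4. Among the 13 were the phosphate carriers Slc34a1 and Slc34a3, Slc2a2, Slc5a2, Slc5a12, the sulfate and dicarboxylate carriers Slc13a1 and Slc13a3, Slc9a3, and Slc16a1, Slc16a10, Slc16a12 and Slc16a14. The 6 were Slc5a1, Slc5a6, Slc5a8, Slc5a10, Slc9a8 and Slc16a9.

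The phosphate carriers lay early. Slc34a1 (chromosome 13, 55398187 to 55415592) stood at 5199, 4921, 5498 and 4638 CPM in S1-like, 4381, 4481, 4687 and 3861 CPM in middle and 1025, 1163, 1005 and 630 CPM in S3-like cells. It was 4.23 to 7.37 times higher in S1-like than in S3-like cells (5.07 in vehicle, 95% interval 4.75 to 5.42), while S1-like and middle values overlapped. Slc34a3, its smaller partner in phosphate uptake (chromosome 2, 25228898 to 25234364), was at 64.7, 68.5, 61.0 and 67.8 CPM in S1-like cells and at 1.09, 1.17, 0 and 1.70 CPM in S3-like cells. Its S3-like values are at or under what 3 UMIs give. Slc20a1, the widespread phosphate carrier PiT1, was 0.574 to 0.996 times its S1-like level in S3-like cells and showed no such step.

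The sodium-coupled monocarboxylate carriers split like the glucose carriers. Slc5a12 (SMCT2), which carries lactate with low affinity, stood at 585, 480, 734 and 637 CPM in S1-like and at 2.17, 19.9, 1.24 and 6.80 CPM in S3-like cells. Slc5a8 (SMCT1), the high-affinity carrier, stood at 70.8, 56.5, 119 and 92.1 CPM in S1-like, 334, 311, 482 and 382 CPM in middle and 399, 352, 572 and 421 CPM in S3-like cells. S1-like cells were lowest for Slc5a8 and highest for Slc5a12 in every library. Among the other anion carriers, the sulfate carrier Slc13a1 (NaS1) was at 1078, 1055, 1132 and 1327 CPM in S1-like and 358, 386, 278 and 337 CPM in S3-like cells. The dicarboxylate carrier Slc13a3 (NaDC3) was highest in middle cells in every library, at 412, 394, 435 and 394 CPM there, 307, 286, 374 and 271 CPM in S1-like and 78.2, 116, 96.8 and 101 CPM in S3-like cells. Slc13a2 (NaDC1), the citrate carrier, was 0.851 to 1.18 times its S1-like level in S3-like cells.

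The proton exchangers also divided. Slc9a3 stood at 90.9, 82.6, 91.3 and 96.1 CPM in S1-like, 60.1, 55.6, 66.0 and 70.6 CPM in middle and 10.9, 8.21, 4.96 and 1.70 CPM in S3-like cells. Slc9a8 (NHE8), another exchanger of the brush border, was at 28.7, 30.7, 33.8 and 31.1 CPM in S1-like, 34.2, 34.5, 40.7 and 31.9 CPM in middle and 157, 114, 141 and 115 CPM in S3-like cells. Only the S3-like values of Slc9a8 stood clear of the others. Of the Slc16a family, Slc16a12, a creatine carrier, was 4.48 to 5.79 times higher in S1-like than in S3-like cells. Slc16a14 stood at 59.9, 69.6, 70.4 and 76.0 CPM in S1-like and at 3.26, 1.17, 3.72 and 1.70 CPM in S3-like cells. Slc16a9 and the vitamin carrier Slc5a6 ran the other way. Slc5a6 was at 31.5, 39.9, 38.5 and 33.99 CPM in S3-like cells, 1.97 to 3.90 times its S1-like level, while its neighbour Atraid was at 250, 204, 230 and 193 CPM there. Slc16a9 was at 106, 88.4, 138 and 111 CPM in S1-like and 169, 177, 221 and 192 CPM in S3-like cells.

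**Figure D3:**
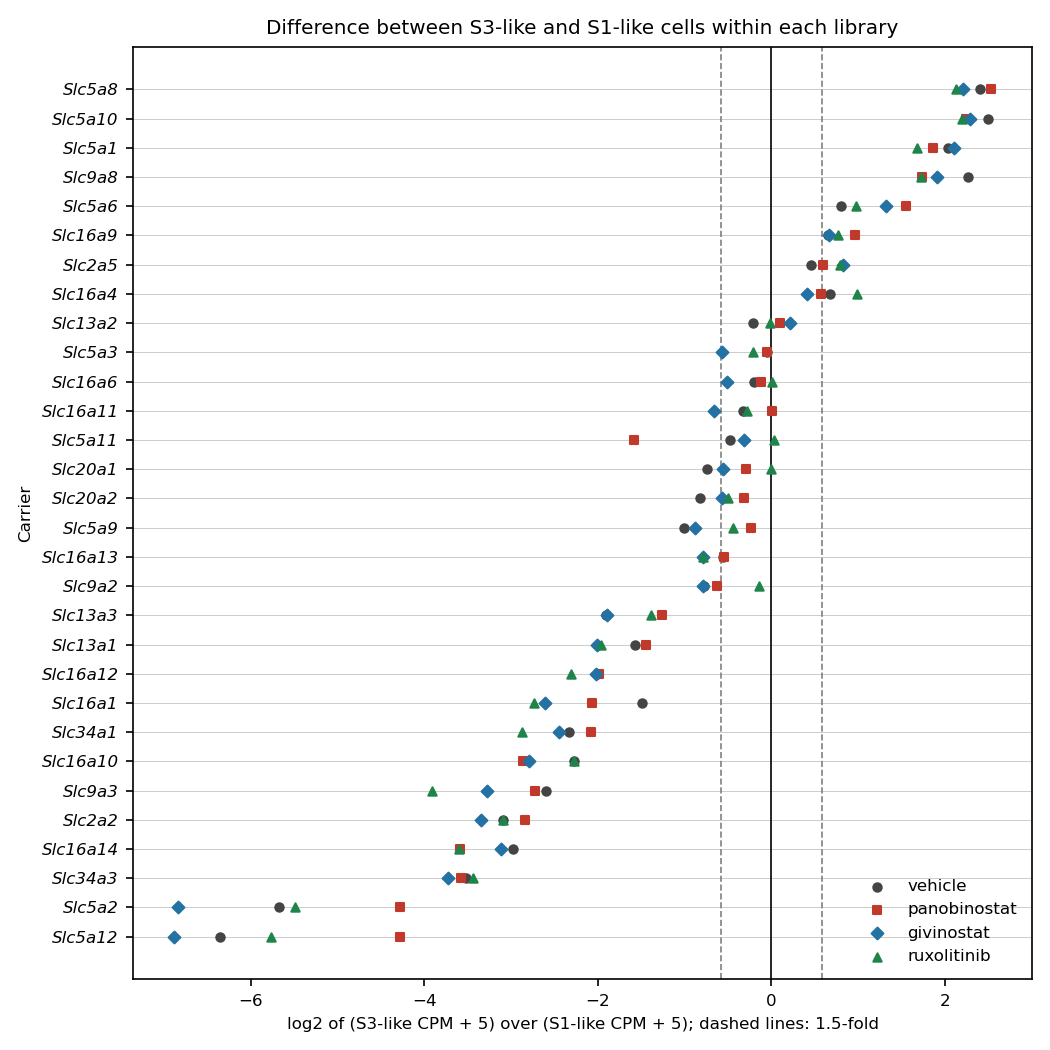
Difference between S3-like and S1-like cells for 30 of the 33 carriers. The horizontal axis is log2 of (S3-like CPM + 5) over (S1-like CPM + 5), each symbol is 1 library and dashed lines mark 1.5-fold. The symbols of 6 carriers lie right of the upper line in 4 of 4 libraries, those of 12 lie left of the lower line, and Slc5a2 and Slc5a12 lie farthest left.

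The segments were not uniform inside. The S3-like cells were 2 clusters of 236 and 78 cells. Pooled over libraries, Slc34a1 was at 410 CPM in the larger and 2764 CPM in the smaller, Slc13a3 at 48.8 and 272 CPM and Slc9a8 at 162 and 20.6 CPM. Slc5a10 (301 and 338 CPM) and Slc5a8 (447 and 380 CPM) lay closer together, so the S3-like level of Slc9a8 came from the larger cluster and most Slc34a1 from the smaller. The S1-like cells were 3 clusters, with pooled Slc5a2 at 939, 379 and 397 CPM, Slc5a12 at 1018, 287 and 421 CPM and Slc5a1 at 2.14, 11.5 and 26.6 CPM. The cluster highest in Slc5a2 and Slc5a12 was lowest in Slc5a1.

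Shares of cells with a UMI of a carrier showed the same opposition. After each cell was thinned to 2900 UMIs, Slc5a2 had a UMI in 75.7%, 71.3%, 67.4% and 65.6% of S1-like cells, in 16.6%, 14.9%, 16.5% and 11.7% of middle cells and in 2.50%, 3.41%, 0% and 2.13% of S3-like cells. T-like cells, which should lack it, had 1.68%, 3.26%, 2.07% and 1.82%, so the S3-like shares were near this background. Without thinning the S1-like shares were 92.0%, 86.7%, 90.1% and 84.6%. Median UMIs were 9776, 7681, 12923 and 10385 in proximal and 4724, 4188, 7367 and 5280 in T-like cells. In proximal cells with a Slc5a2 UMI, Slc5a1 had one in 5.30%, 3.75%, 5.09% and 3.62%, against 14.4%, 12.6%, 18.8% and 17.6% of proximal cells without. Slc5a8 had one in 13.8%, 12.2%, 21.6% and 10.5% of cells with Slc5a12, against 49.5%, 46.2%, 63.4% and 50.2% of those without. Carriers of the same end occurred together: Slc5a12 had a UMI in 65.0%, 60.8%, 64.9% and 73.5% of cells with Slc5a2, against 9.08%, 10.0%, 9.48% and 13.5% of cells without. Pairs were counted over all proximal segments together, so they also carry the segment differences given above and are not separate evidence. Pairs within a single segment were not counted.

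Beyond the proximal tubule, loop of Henle-like cells (230, 148, 165 and 268) had their own set. Against proximal cells, 10 of 39 carriers were higher in the loop past 1.5-fold in all 4 libraries, while the same held for 20.9% of 9270 genes, a similar share. Lower were 22 of the 39, against 13.5% of all genes. Among the 10 were Slc2a1, Slc2a4, Slc2a13, Slc5a1, Slc5a3, Slc9a3, Slc16a5, Slc16a7 and Slc34a2. The myo-inositol carrier Slc5a3 (SMIT1; chromosome 16, 92058322 to 92087473), which brings an osmolyte into cells of the salty medulla, stood at 705, 848, 832 and 1033 CPM in loop cells, 87.4, 115, 102 and 134 CPM in distal cells and 12.3 to 19.0 CPM in S1-like cells. Its exons overlap those of Mrps6, a mitochondrial ribosomal protein gene on the same strand, which stood at 704, 765, 761 and 876 CPM in loop cells, 112, 133, 132 and 126 CPM in distal cells and 28.3 to 36.3 CPM in S1-like cells. How reads of this shared stretch were divided is not given in the sources used here, so both levels are uncertain. Slc5a1 reached 203, 155, 205 and 199 CPM in loop cells, above every proximal segment in every library. Slc9a3 was likewise higher there, at 165, 219, 206 and 243 CPM. The glucose uniporter Slc2a1 (GLUT1; chromosome 4, 119108711 to 119137983) was at 79.0, 91.6, 88.6 and 99.2 CPM in loop and 70.0, 62.8, 81.2 and 90.9 CPM in distal cells, which overlapped, and at 3.52 to 7.65 CPM in the proximal segments. Slc2a4 (GLUT4), the insulin-responsive uniporter, was at 64.3, 49.3, 61.8 and 54.6 CPM in loop and 42.2, 28.2, 42.3 and 28.6 CPM in distal cells.

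Distal-like cells (220, 160, 104 and 141) had 9 of 40 carriers above proximal cells in all 4 libraries, against 18.5% of 9171 genes, again a similar share. Below were 27 of the 40, against 15.5% of all genes. Slc16a7 (MCT2), a high-affinity lactate and pyruvate carrier, stood at 295, 297, 371 and 280 CPM there, at 295, 236, 288 and 236 CPM in loop cells and at 5.95 CPM or less in every proximal segment. Slc2a9, a urate carrier, was at 50.4, 33.6, 53.2 and 49.1 CPM in distal cells and at 6.66 CPM or less in the proximal segments and the loop. With finer clusters, chosen after the data were seen, Slc16a7 was pooled at 463 CPM in distal convoluted tubule-like and 219 CPM in connecting or principal cell-like cells, while Slc2a9 was at 22.5 and 62.1 CPM. Intercalated cell-like cells, of which 1 library had 48, are given pooled only: Slc16a7 was at 290 CPM, Slc5a3 at 120 CPM and Slc2a1 at 84.1 CPM.

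In leukocytes 7 of 39 carriers were above proximal cells in all 4 libraries, against 31.3% of 9548 genes, a larger share. Below were 27 of the 39, against 27.2% of all genes. Among the 7 were Slc2a1, Slc2a3, Slc2a6, Slc9a9, Slc16a3 and Slc16a7. Slc16a3 (MCT4), which exports lactate from glycolytic cells, stood at 93.6, 77.8, 113 and 81.5 CPM in monocyte-like cells against 9.45 to 20.4 CPM in macrophage-like and 1.89 to 4.45 CPM in T-like cells. Slc2a3 (GLUT3), a high-affinity glucose uniporter, was at 43.8, 37.7, 44.3 and 41.5 CPM in T-like cells and at 1.21 to 5.35 CPM in monocyte-like cells, so the pair of lineages did not overlap for either gene. Natural killer (NK)-like cells held the highest Slc2a3 level in panobinostat, givinostat and ruxolitinib, at up to 83.6 CPM, and T-like cells held it in vehicle. Slc2a1 was at 54.4, 29.0, 59.6 and 43.0 CPM in monocyte-like and 25.8 to 33.5 CPM in T-like cells. Slc16a6 (MCT7) was at 70.3, 55.2, 74.4 and 61.4 CPM in T-like cells, and the aromatic amino acid carrier Slc16a10 at 57.0, 57.9, 57.0 and 58.3 CPM in monocyte-like cells. For Slc16a6, NK-like cells were the highest class in panobinostat and givinostat, and T-like cells in vehicle and ruxolitinib. Neutrophil-like cells were under 50 in every library and are given pooled: Slc16a3 was at 164 CPM (95% interval 138 to 194) and Slc2a3 at 140 CPM (116 to 167). Slc20a1 was present in each of the tubule and leukocyte classes plotted, between 20.2 and 88.9 CPM. RNA of tubule cells was also counted in leukocytes: 12 genes known from the proximal tubule, such as Miox and Lrp2, stood at a median of 4.40%, 6.58%, 4.02% and 3.71% of their proximal level in T-like cells. In cells of the macrophage-like and monocyte-like classes the median was 11.9%, 15.2%, 9.68% and 9.44%. Proximal carriers counted in leukocytes, such as Slc34a1 at 171, 247, 171 and 147 CPM in T-like cells, are not read as leukocyte expression.

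Each drug library was then set beside the vehicle library, to ask which carriers differed under each compound. All 3 comparisons share the vehicle library, and the doses of panobinostat and givinostat differ, so those libraries are not compared with each other. In proximal tubule-like cells 0 of 32 carriers with at least 10 CPM passed 1.5-fold in the panobinostat, givinostat or ruxolitinib library, while 1.24%, 1.26% and 1.52% of all genes did. The median carrier ratio was 0.951, 1.04 and 1.05, beside 1.01, 1.05 and 1.06 over all genes, and 12, 20 and 19 of 32 were above vehicle, beside 53.8%, 63.2% and 67.8% of all genes. Slc34a1 was at 4487, 4514, 4763 and 4006 CPM, so ruxolitinib was at 0.893 times vehicle (0.884 to 0.901). Slc13a1 was at 883, 769, 794 and 1063 CPM, with panobinostat at 0.871 (0.853 to 0.889) and ruxolitinib at 1.20 (1.18 to 1.23) times vehicle. Slc13a3 was at 365, 346, 402 and 328 CPM, and Slc5a2 at 250, 262, 215 and 245 CPM.

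The ratio nearest the 1.5-fold line among abundant carriers was that of Slc5a8 in the givinostat library. It stood at 255, 223, 381 and 265 CPM, and givinostat was at 1.49 times vehicle (1.44 to 1.55). Within segments the givinostat ratio was 1.68 (1.49 to 1.90) in S1-like, 1.45 (1.39 to 1.503) in middle and 1.43 (1.25 to 1.65) in S3-like cells, so it was above vehicle in each. Slc5a12 was at 215, 196, 264 and 293 CPM, with ruxolitinib at 1.36 times vehicle (1.31 to 1.42). Within S1-like cells, which hold most Slc5a12 and were 601 vehicle and 762 ruxolitinib cells, that ratio was 1.09 (1.04 to 1.13). With the proximal segments weighted by the same shares in every library, it was 1.09 in the whole class. The same weighting put Slc5a2 in panobinostat at 0.955 times vehicle, on the other side of 1. Some further carriers were chosen after their values were seen. Slc16a12 was at 131 CPM in givinostat and 90.7 CPM in vehicle (1.45, 1.37 to 1.54), and Slc20a1 at 84.4, 57.4, 60.3 and 82.9 CPM. Slc20a1 was at 0.681 (0.634 to 0.732) times vehicle in panobinostat and 0.714 (0.662 to 0.770) in givinostat. It also differed between proximal clusters, from 9.55 to 138 CPM pooled, and the part of the cluster mix was not tested.

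Within single segments some carriers did pass 1.5-fold. In S1-like cells they were 1 of 33, 2 of 34 and 1 of 34 in panobinostat, givinostat and ruxolitinib, against 1.00%, 2.08% and 1.52% of all genes, and in middle cells 1 of 31 in each, against 1.97%, 1.59% and 1.81%. In the few S3-like cells they were 5 of 28, 2 of 25 and 3 of 27, against 17.0%, 20.1% and 15.9%. In S1-like cells Slc5a8 passed in givinostat, as given above, and Slc16a1 (MCT1), a lactate carrier, stood at 24.4, 40.51, 40.49 and 28.2 CPM and passed in panobinostat and givinostat, at 1.66 times vehicle in each. Slc5a1 passed there in ruxolitinib, at 20.4 against 11.5 CPM. In middle cells Slc20a1 passed in panobinostat at 0.637 (0.581 to 0.699), Slc16a12 in givinostat at 1.55 (1.43 to 1.67) and Slc5a2 in ruxolitinib at 0.641 (0.580 to 0.709) times vehicle. Slc34a1, the most abundant carrier, stood at 1025.4, 1163, 1005 and 630 CPM in S3-like cells, so ruxolitinib was lowest, at 0.614 times vehicle (0.557 to 0.677, from 741 and 944 UMIs). The S3-like cluster richer in Slc34a1 made up 26.25%, 28.4%, 23.1% and 21.3% of these cells. Ruxolitinib was lowest within both clusters, at 243 CPM against 433 CPM in vehicle in the larger and at 2228 against 2920 CPM in the smaller, which had 20 and 21 cells. Slc13a2 passed in givinostat in S3-like cells, at 70.7 against 42.4 CPM. The other carriers past the line in S3-like cells rested on at most 29 UMIs in either library.

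**Figure D4:**
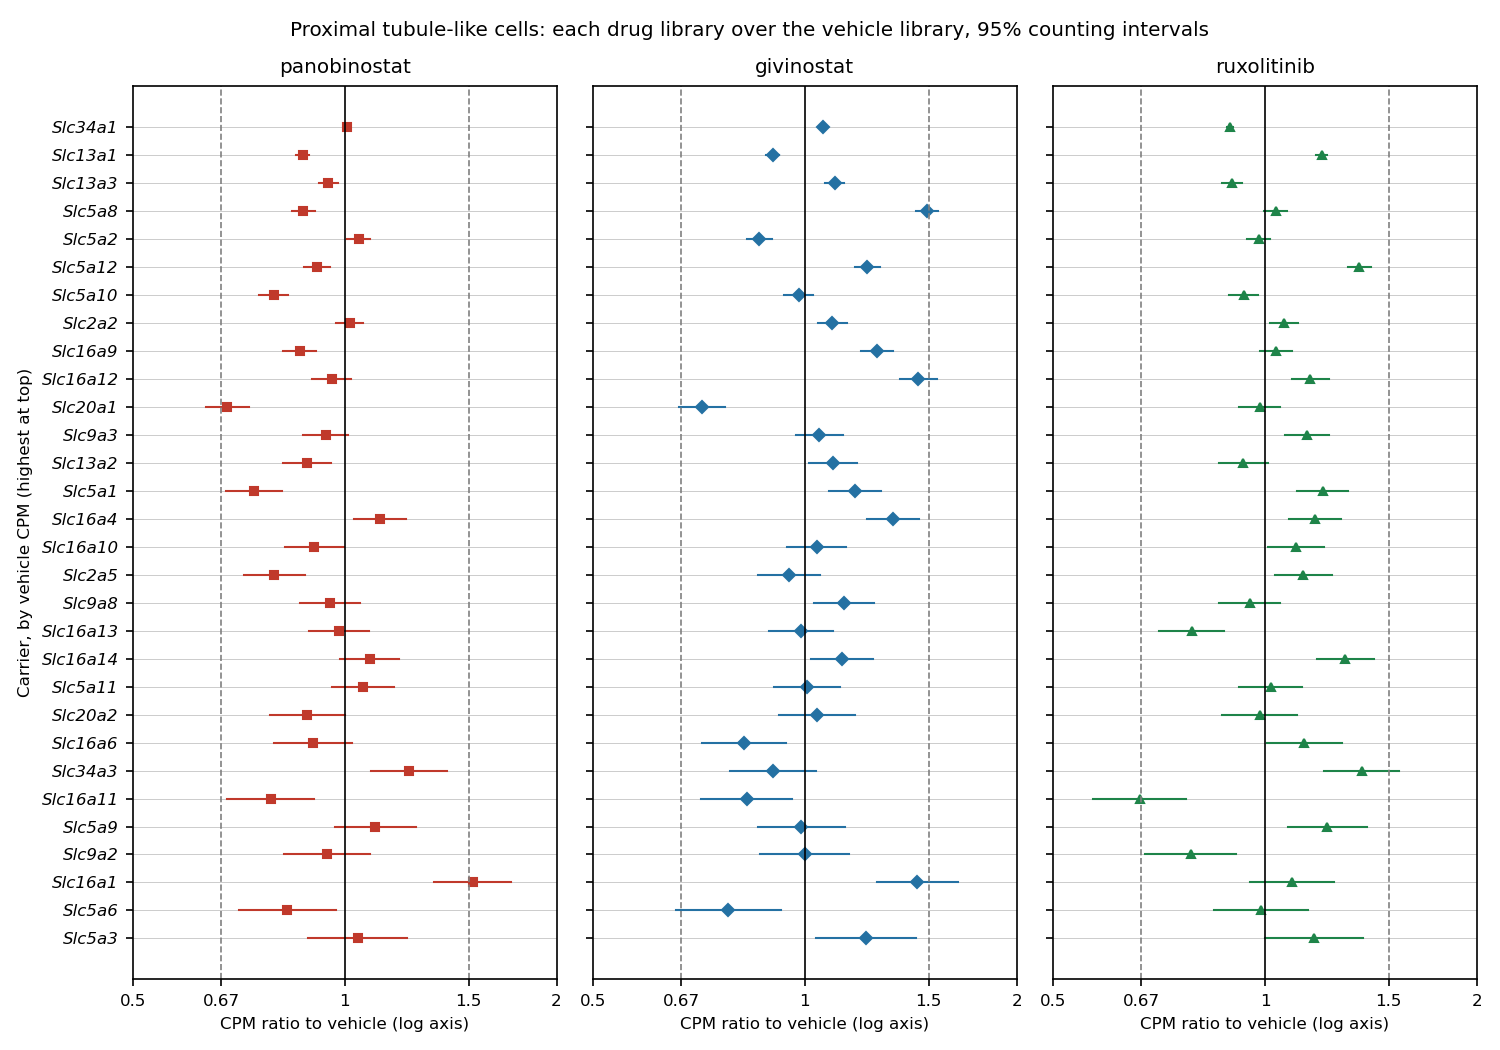
Ratio of each drug library to the vehicle library for 30 carriers in proximal tubule-like cells. The horizontal axis is the CPM ratio on a log axis, bars are exact 95% counting intervals and dashed lines mark 1.5-fold. Most points lie between the dashed lines, with Slc5a8 at 1.49 in givinostat and Slc20a1 at 0.681 in panobinostat near them, and Slc16a1 at 1.52 in panobinostat beyond the line only before the pseudocount of 5 CPM is added.

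Partner genes of the carriers, a list of 33 scaffold, glucose, phosphate and sodium handling genes, passed 1.5-fold in 3 of 26, 4 of 26 and 4 of 27 measured in proximal cells. The same held for 1.24%, 1.26% and 1.52% of all genes. On the log2 scale of the 1.5-fold line, their ratios ran from -1.33 to 0.622 in panobinostat and from -1.19 to 0.635 in givinostat. In ruxolitinib they ran from -0.615 to 2.44. The lowest givinostat and the highest ruxolitinib value belong to no gene named below, so the named genes understate the largest differences. G6pc, which releases glucose from glucose-6-phosphate before Slc2a2 carries it out, stood at 268, 416, 420 and 423 CPM. Txnip, which lowers glucose uptake through the Slc2a uniporters, stood at 587, 319, 376 and 387 CPM. Vehicle was lowest for G6pc and highest for Txnip, and a difference common to 3 ratios over 1 shared library is not a repeated result. Sgk1, a steroid-controlled kinase that acts on sodium and glucose carriers, was at 317, 123, 209 and 295 CPM. Car4, a carbonic anhydrase of the brush border that works with proton exchange, was at 0.642 times vehicle in ruxolitinib (162 and 104 CPM). The sodium pump subunit Atp1b1 (0.856, 1.13 and 1.11) and the bicarbonate carrier Slc4a4 (1.01, 1.07 and 1.08) had ratios nearer 1 in panobinostat, givinostat and ruxolitinib.

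In loop of Henle-like cells 9 of 30 carriers passed 1.5-fold in panobinostat, 10 of 29 in givinostat and 11 of 29 in ruxolitinib, against 6.79%, 6.86% and 6.79% of all genes. The direction was 7 higher and 2 lower in panobinostat, 1 higher and 9 lower in givinostat and 1 higher and 10 lower in ruxolitinib. Most of these were proximal carriers, such as Slc34a1 at 370, 562, 128 and 142 CPM and Slc13a1 at 62.5, 136, 24.0 and 26.6 CPM in loop cells. Beside them, the 12 proximal genes without Fxyd2, which loop cells also express, had median ratios of 1.36, 0.370 and 0.455 in the same cells, and stood at 7.42%, 11.5%, 2.84% and 3.74% of their proximal level. Slc34a1 stood at 8.24%, 12.5%, 2.69% and 3.54% of its own. One set was the carriers that reached 50 CPM in a class and had their highest level in proximal cells in all 4 libraries. Of these, 6 of 14, 8 of 13 and 8 of 13 passed 1.5-fold in loop cells, with median ratios of 1.51, 0.410 and 0.444. Of the other carriers 3 of 16, 2 of 16 and 3 of 16 passed, with medians of 1.07, 1.07 and 1.06. Any carrier under 50 CPM in every class was counted among these others, wherever its highest level lay. This grouping was added after the values were seen and uses levels from the same libraries, so it describes these carriers and supports nothing further. The part of proximal RNA in the loop results was not tested.

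**Figure D5:**
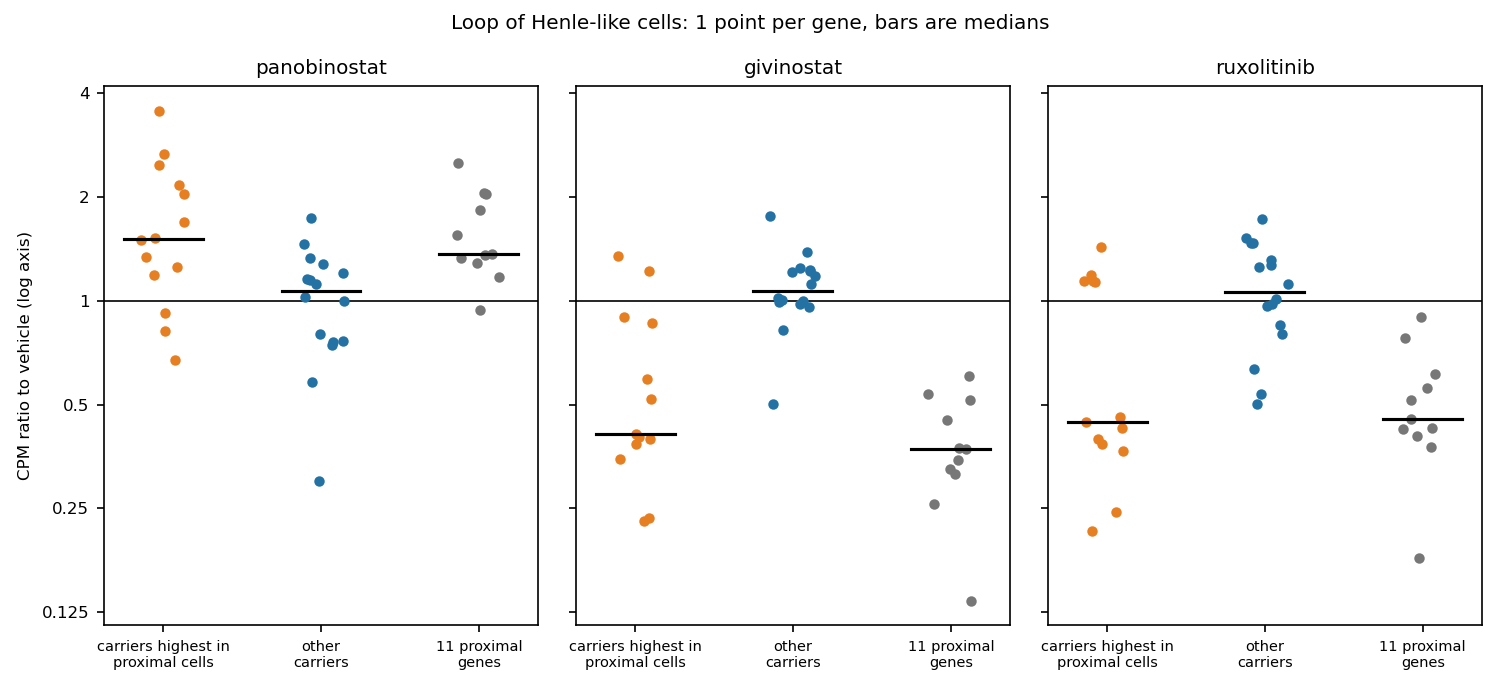
Ratio of each drug library to vehicle in loop of Henle-like cells. The vertical axis is the CPM ratio on a log axis, each point is 1 gene and bars are medians. The first set is carriers that reached 50 CPM in a class and had their highest level in proximal cells in 4 of 4 libraries. The second is the other carriers, with any under 50 CPM, and the third is 11 genes known from the proximal tubule. The medians of the 3 sets are 1.51, 1.07 and 1.36 in panobinostat, 0.410, 1.07 and 0.370 in givinostat and 0.444, 1.06 and 0.455 in ruxolitinib.

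Slc34a2 (NaPi-IIb; chromosome 5, 53038081 to 53071664), a phosphate carrier best known from intestine and lung, stood at 50.04, 87.0, 88.2 and 86.4 CPM in loop cells and at 3.40 CPM or less in the proximal segments. These rest on 133, 113, 217 and 250 UMIs. Its ratio to vehicle was 1.74 (1.34 to 2.25) in panobinostat, 1.76 (1.41 to 2.21) in givinostat and 1.73 (1.39 to 2.15) in ruxolitinib, so the vehicle library stood apart from the other 3. Within the loop it followed Lcn2, a gene of injured tubule. In the finer clusters Slc34a2 was at 127, 164, 125.03 and 182 CPM in loop cells with high Lcn2 (2035 CPM pooled) and at 18.6, 30.2, 44.8 and 28.4 CPM in loop cells with low Lcn2 (243 CPM pooled). The high-Lcn2 cluster made up 30.5%, 35.6%, 42.2% and 43.4% of the pair. Within it the ratios to vehicle were 1.29 (0.962 to 1.72), 0.984 (0.765 to 1.27) and 1.43 (1.14 to 1.80). In the low-Lcn2 cluster they were 1.62 (0.958 to 2.71), 2.41 (1.60 to 3.67) and 1.53 (0.981 to 2.39). Slc16a7 was lower with high Lcn2, at 94.1 against 356 CPM pooled, and Slc5a1 at 122 against 219 CPM, while Slc5a3 (774 against 818 CPM) and Slc9a3 (212 against 185 CPM) lay closer together.

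Over all loop cells the abundant loop carriers had smaller ratios than Slc34a2. Slc5a3 had 1.20 (1.12 to 1.30), 1.18 (1.11 to 1.26) and 1.47 (1.38 to 1.55), and Slc9a3 had 1.33 (1.14 to 1.55), 1.25 (1.09 to 1.42) and 1.47 (1.30 to 1.66). Slc5a1 was at 0.762 (0.645 to 0.897) in panobinostat and at 1.01 and 0.980 in the other pair. Slc16a7 was at 0.801, 0.976 and 0.801 times vehicle. Within the high-Lcn2 cluster several ratios were farther from 1. There the Slc16a7 ratios were 0.542 (0.377 to 0.768), 0.398 (0.294 to 0.534) and 0.608 (0.474 to 0.781). Slc9a3 was at 1.53 (1.17 to 2.00), 1.30 (1.04 to 1.65) and 2.26 (1.84 to 2.80), and Slc5a1 at 0.944, 1.02 and 1.57 (1.23 to 2.03 in ruxolitinib). In the low-Lcn2 cluster Slc16a7 was at 0.853, 1.16 and 0.942, Slc9a3 at 1.17, 1.21 and 1.08 and Slc5a1 at 0.773, 1.05 and 0.885 times vehicle. Against 6.79%, 6.86% and 6.79% of all genes, 4 of 28, 7 of 27 and 5 of 27 partner genes passed. These were Pdzk1, G6pc, Fbp1 and Slc4a4, all higher, in panobinostat, and Pdzk1, Slc37a4, Pck1, Fbp1 and Khk, all lower, in givinostat and ruxolitinib, with G6pc and Slc4a4 also lower in givinostat. They are genes of the proximal brush border, of glucose and fructose metabolism and of bicarbonate exit, and their directions were those of the 11 proximal genes.

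In macrophage-like and monocyte-like cells together 5 of 27, 6 of 28 and 4 of 27 carriers passed 1.5-fold in panobinostat, givinostat and ruxolitinib, against 5.97%, 7.05% and 5.46% of all genes. The 12 proximal genes had median ratios of 1.40, 0.857 and 0.756 there. Slc16a3, the lactate exporter, was at 57.7, 56.1, 80.9 and 51.1 CPM, with givinostat at 1.40 times vehicle (1.15 to 1.72) where monocyte-like cells were 149 in vehicle and 301 in givinostat and macrophage-like cells 136 and 158. Within monocyte-like cells alone the givinostat ratio was 1.21 (0.972 to 1.51), an interval that includes 1. Slc20a1 was at 55.9, 62.5, 55.7 and 53.6 CPM. Of the proximal carriers Slc34a1 was at 515, 681, 501 and 446 CPM and Slc13a3 at 58.6, 59.3, 47.0 and 52.5 CPM. Slc13a1 was at 130, 113, 75.2 and 124 CPM and passed 1.5-fold in givinostat. The following carriers under 50 CPM were chosen after their values were seen. Slc2a6 (GLUT6), a hexose uniporter of inner membranes, was at 13.6, 26.4, 33.2 and 20.8 CPM, or 1.94 (1.24 to 3.09), 2.44 (1.65 to 3.72) and 1.53 (0.986 to 2.42) times vehicle. Slc2a1 was at 40.9, 24.8, 46.6 and 34.8 CPM, with panobinostat at 0.607 (0.432 to 0.848). Slc5a3 was at 42.3, 26.4, 13.9 and 20.8 CPM and Slc16a7 at 42.3, 22.4, 22.9 and 29.1 CPM, both highest in vehicle. In macrophage-like cells alone these carriers of the loop stood at 75.2, 51.2, 28.9 and 41.2 CPM (Slc5a3) and 69.6, 33.4, 39.5 and 44.6 CPM (Slc16a7), while 12 loop markers summed to 3871, 1816, 1035 and 1237 CPM in the same cells. The part of loop RNA in these values was not tested.

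In T-like cells (773, 460, 821 and 604) 2 of 18 carriers passed 1.5-fold in panobinostat, 0 of 14 in givinostat and 1 of 15 in ruxolitinib, against 5.02%, 2.88% and 3.16% of all genes. These counts depended on the clustering: with a Leiden resolution of 0.5 they were 4, 7 and 6, and without cells called doublets the givinostat count was 3. Slc16a6, at 50 CPM or more in T-like cells, had ratios of 0.785 (0.627 to 0.977), 1.06 (0.914 to 1.23) and 0.873 (0.728 to 1.05). Slc20a1, also at that level, had 1.04 (0.830 to 1.30), 1.16 (0.983 to 1.36) and 1.21 (1.004 to 1.45). The interval left out 1 for Slc16a6 in panobinostat and Slc20a1 in ruxolitinib. Under 50 CPM, Slc2a3 had 0.861, 1.01 and 0.947 and Slc2a1 had 1.02, 0.868 and 0.792. Among those past the line were the dicarboxylate carrier Slc13a3 (16.3 and 29.2 CPM) in panobinostat and Slc5a12 (6.43 and 12.2 CPM) in ruxolitinib, named after their values were seen. The 12 proximal genes were at median ratios of 1.53, 0.934 and 0.820 in T-like cells, and Slc34a1 at 1.45, 1.00 and 0.862. No carrier of T-like cells at 50 CPM or more passed 1.5-fold in any of the 3 libraries.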

How the data were processed

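Single-cell RNA of total kidney cells was measured in 4 libraries. The deposited matrix holds raw UMI counts per gene and cell, made by the authors with Cell Ranger 3.0.1 and mm10, per the submitters' processing notes. Those notes name no cell filter. Library names in the cell names match 3 drugs, and the remaining library was taken as vehicle, since no label uses its name.

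Limits of 200 genes, 500 UMIs and 50% mitochondrial reads per cell removed 226 cells. The highest mitochondrial share of a kept cell was 39.96% to 39.98% in each library. The lowest UMIs of a kept cell were 3723, 2920, 5272 and 3817. Whether an earlier filter set these edges was not tested. For clustering, each cell was scaled to 10000 and logged. Leiden clustering (resolution 1, 2000 variable genes without the carriers, 30 components, 15 neighbours; scanpy 1.11.5, leidenalg 0.10.2, Python 3.11.15) gave 31 clusters, named from markers with thresholds that were chosen with the data in view. A cluster of 136 cells stayed unnamed and 218 cycling cells were not used. Scrublet called 0.0255%, 0.0682%, 2.30% and 0.302% of cells doublets, too few in 3 libraries for the caller to have worked, and doublets were kept.

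UMIs were summed per class with at least 50 cells in each library and scaled to a common library total (CPM). Levels carry exact Poisson, ratios exact conditional binomial and shares exact Clopper-Pearson 95% intervals, and a limit of 3 UMIs was taken for a count of 0. With 1 library per group no test was made. A ratio was called past 1.5-fold on log2(CPM + 5) for genes with at least 10 CPM in either library. Interval coverage was tested on data simulated with counting error only, which cannot show how far real variation between cells widens the error. Carriers are given by class where they reached 50 CPM. Counts cover all measured genes of a list, but a few genes are not reported here by name or plotted by name. In drug comparisons the carriers past 1.5-fold with at least 50 CPM and the 5 most abundant were named. Of 33 partner genes, those named were past 1.5-fold or among the 6 most abundant, and not all such genes were named. The carriers and lists were chosen with earlier results of these data known. All 51 symbols matched GENCODE vM21, and promoters are from RefSeq. Alternatives used TMM totals (edgeR 4.0.16), DESeq2 1.42.0 size factors (R 4.3.3), other filters, pseudocounts and clusterings.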

Additional observations from a re-analysis of the deposited data

How the results depend on the processing

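Under the alternatives 136 counts of carriers stayed within 1.5 times and 41 counts moved. Of single-carrier ratios, median ratios and shares of cells, 918 values stayed within their interval, 139 moved and 1 turned its direction. The last was Slc13a3 in S3-like over S1-like cells of the panobinostat library, at 1.09 with a Leiden resolution of 1.5. Among the 139 were 38 shares of cells taken without thinning, which depend on depth. The counts of carriers past 1.5-fold moved as follows, in the order panobinostat, givinostat, ruxolitinib where 3 are given. Under a stricter cell filter (500 genes, 1000 UMIs, 20% mitochondrial) it was 1 for proximal cells in ruxolitinib, 5 for loop cells in panobinostat, 3 and 2 for macrophage-like and monocyte-like cells in panobinostat and givinostat, and 1 and 1 for T-like cells in the same pair. With a resolution of 0.5 it was 2 for macrophage-like and monocyte-like cells in ruxolitinib and 4, 7 and 6 for T-like cells. With 1.5 it was 3 and 2 for macrophage-like and monocyte-like cells in panobinostat and givinostat and 2 for T-like cells in ruxolitinib, and 0 carriers were highest in distal cells. With the carriers kept for clustering 1 was highest in distal cells, and 0 passed in T-like cells in ruxolitinib, as with TMM totals or DESeq2 size factors. Without Scrublet doublets it was 3 for T-like cells in givinostat. With a pseudocount of 1 CPM it was 4 and 2 for T-like cells in panobinostat and ruxolitinib. With 20 CPM it was 4, 6 and 5 for loop cells, 1, 3 and 1 for macrophage-like and monocyte-like cells and 0 and 0 for T-like cells in panobinostat and ruxolitinib. With no filter on low values it was 8 and 7 for macrophage-like and monocyte-like cells and 4 and 2 for T-like cells, each in panobinostat and ruxolitinib. With a 50 CPM filter it was 3, 3 and 3 for loop cells, 0, 1 and 0 for macrophage-like and monocyte-like cells and 0 and 0 for T-like cells in panobinostat and ruxolitinib. With each proximal segment weighted alike in every library, 9 of 18 proximal values moved, all of them ratios of single carriers, and the counts past 1.5-fold stayed at 0. The cause of these moves was not tested, except that pseudocounts and level filters act on carriers of low level by construction. Leaving out 1 library at a time moved none of the segment and class counts by over 1.5 times. TMM totals moved the median of all genes in proximal cells by -0.11 (log2) in ruxolitinib. The stricter filter left S3-like and distal-like cells under 50 in a library and gave no values there. No paired analysis was possible because each group has 1 library. Small classes limit depth: S3-like cells of the givinostat library numbered 52.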
